A study of Mus musculus with 6 samples.

Results

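The 9 genes described here, Gml, Ly6f, Psca, Ly6g, Ly6g2, Ly6e, Ly6d, Ly6k and Slurp1, encode proteins of the Ly6/uPAR family. They were chosen by family name from 19938 measured genes, with the difference of their log2 signals between YAP transgenic and control crypts already known. That difference is therefore a description here and is not tested. Family name alone does not define the 9, since 33 other measured Ly6/uPAR genes were not among them. Those 33 had a median log2 difference of 0.10, against 1.81 for the 9. The choice within the family sets this contrast in part. Total RNA came from intestinal crypts, the epithelial pits of the gut wall that hold its stem and progenitor cells, of 3 control and 3 transgenic mice, with 1 array per mouse. By the series title the transgenic mice carried YAP-S127A and Villin-rtTA. YAP is a transcriptional coactivator, and the S127A form resists inhibition by the Hippo kinases. Villin-rtTA places a doxycycline-dependent activator under a promoter of the intestinal epithelium, and doxycycline was given for 2 days. The control genotype is labelled only as control. The labels leave out the transgenes of these mice and whether they too had doxycycline, so effects of the drug and of the transgene cannot be told apart. Strain, age and sex were not given in the labels.

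Ly6/uPAR proteins share a compact fold of finger-like loops held by disulfide bonds. Most are tethered to the outer face of the cell membrane by a glycosylphosphatidylinositol (GPI) anchor, and a few are secreted. Several members mark blood cell types, such as Ly6g on neutrophils, while others act at nicotinic acetylcholine receptors, in the urokinase system or against complement. In the mouse many of their genes stand side by side in a cluster on chromosome 15, where near-identical copies make it hard for a short probe to tell neighbours apart.

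All 9 genes lay in this cluster by the order of a RefSeq gene table. A search of RefSeq promoter windows, which run from 250 bases before to 50 bases after a gene's annotated start in the mouse assembly GRCm38.p6, matched 2 of the 9, Ly6f and Ly6g. The sequences just before these starts are shown because Ly6f and Ly6g were both higher in the transgenic crypts and their upstream stretches are close copies. They lie at chr15:75268171-75268349 for Ly6f and chr15:75155081-75155260 for Ly6g, both on the plus strand, and the capitals mark the bases at which the aligned copies differ.
Ly6f: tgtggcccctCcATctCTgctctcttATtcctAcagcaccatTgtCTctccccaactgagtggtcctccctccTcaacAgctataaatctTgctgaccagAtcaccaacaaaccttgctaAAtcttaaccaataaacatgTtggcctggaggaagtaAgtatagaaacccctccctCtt
Ly6g: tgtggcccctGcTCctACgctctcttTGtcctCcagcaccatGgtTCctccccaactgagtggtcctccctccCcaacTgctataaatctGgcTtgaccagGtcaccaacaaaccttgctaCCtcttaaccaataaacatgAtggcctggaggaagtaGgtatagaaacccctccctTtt
The copies were identical at 159 of 180 aligned positions (88.3%), with 20 mismatches and 1 gap. The Ly6f stretch ends 22 bases before the first annotated base of the gene and the Ly6g stretch directly before it. Both hold TATAAA, the letters of a TATA box, a choice made after the sequences were read. These letters lie 92 bases before the end of the Ly6f stretch and 93 before that of Ly6g, and whether they act was not tested. TATAAA occurred on either strand in 13.6% of all 32851 windows. No window of either gene held GGAATG or its reverse complement CATTCC, the core recognised by the TEAD factors through which YAP binds DNA. That core occurred in 14.7% of all windows and in those of 2 of 27 other family genes, Ly6g6d and Lypd8. Over its full upstream window Ly6f resembled Ly6g most, with 88.6% identity over 202 positions. Next came Ly6c1, with 86.8% identity over 136 positions, and Ly6c2 and Ly6a2, each with 69.4% over 209 positions. Transcript and probe sequences were not compared here. Whether the values of Ly6f, Ly6g, Ly6g2 and Gml hold signal from a paralogue was therefore not tested.

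For 5 of the members every transgenic mouse stood more than 1 log2 step above every control. For Ly6d the lowest transgenic value lay only 0.07 above the highest control, and Ly6e, Ly6k and Slurp1 overlapped between groups. Across all genes, all transgenic values lay above all controls for 16.5% and below for 17.0%, whatever the gap. The members were chosen with this contrast known, so their count is a description only. The largest differences were those of Gml, Ly6f and Psca, which encode cell surface proteins. Gml, Ly6f and Psca ranked 2, 3 and 10 of 19938 genes by the size of the increase. All values are deposited log2 signals, in which a step of 1 is a 2-fold change. With 3 arrays in a group, their number limits how precise each value is.

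Gml, a GPI-anchored molecule-like protein, had log2 signals of 5.49, 5.86 and 5.97 in control mice 1, 2 and 3. In transgenic mice 1, 2 and 3 it read 11.80, 9.88 and 10.48. Every transgenic value lay at least 3.90 above the highest control, and mouse 1 was the highest of the transgenic mice. The group means were 5.77 ± 0.25 and 10.72 ± 0.98 (SD, n = 3 each), a log2 difference of 4.95 (SE 0.47) or 30.8-fold. A further probe set is annotated to both Gml and its neighbour Gml2 and was not used for naming a gene. It read 4.70, 5.08 and 4.73 in controls and 11.00, 9.03 and 9.65 in transgenic mice, with the same order among the transgenic mice.

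Ly6f, a little-studied copy within the cluster, read 4.44, 5.34 and 4.79 in controls and 10.15, 9.68 and 9.21 in transgenic mice 1, 2 and 3. The groups were 3.88 apart at their closest, and the 3 transgenic mice were spread about as widely as the controls. Means were 4.86 ± 0.45 and 9.68 ± 0.47 (SD, n = 3 each), a log2 difference of 4.83 (SE 0.31) or 28.4-fold. The control mean of Ly6f lay below 4.97, the control median of probe sets treated as array controls. Set against that control median, the transgenic mean gave 26.1-fold. This is no firm lower limit, since the same probe sets had a higher median of 5.17 on the transgenic arrays.

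Psca, prostate stem cell antigen, is a surface protein of several epithelia, the prostate, bladder and stomach among them. Its signals were 6.07, 5.94 and 5.61 in controls and 11.08, 8.87 and 9.38 in transgenic mice 1, 2 and 3. As with Gml, transgenic mouse 1 was highest and mouse 2 lowest, and the groups were 2.80 apart at their closest. The means of Psca were 5.87 ± 0.24 and 9.78 ± 1.16 (SD, n = 3 each), a log2 difference of 3.91 (SE 0.55) or 15.0-fold, which was 3.25 on the log2 scale without transgenic mouse 1.

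**Figure D1:**
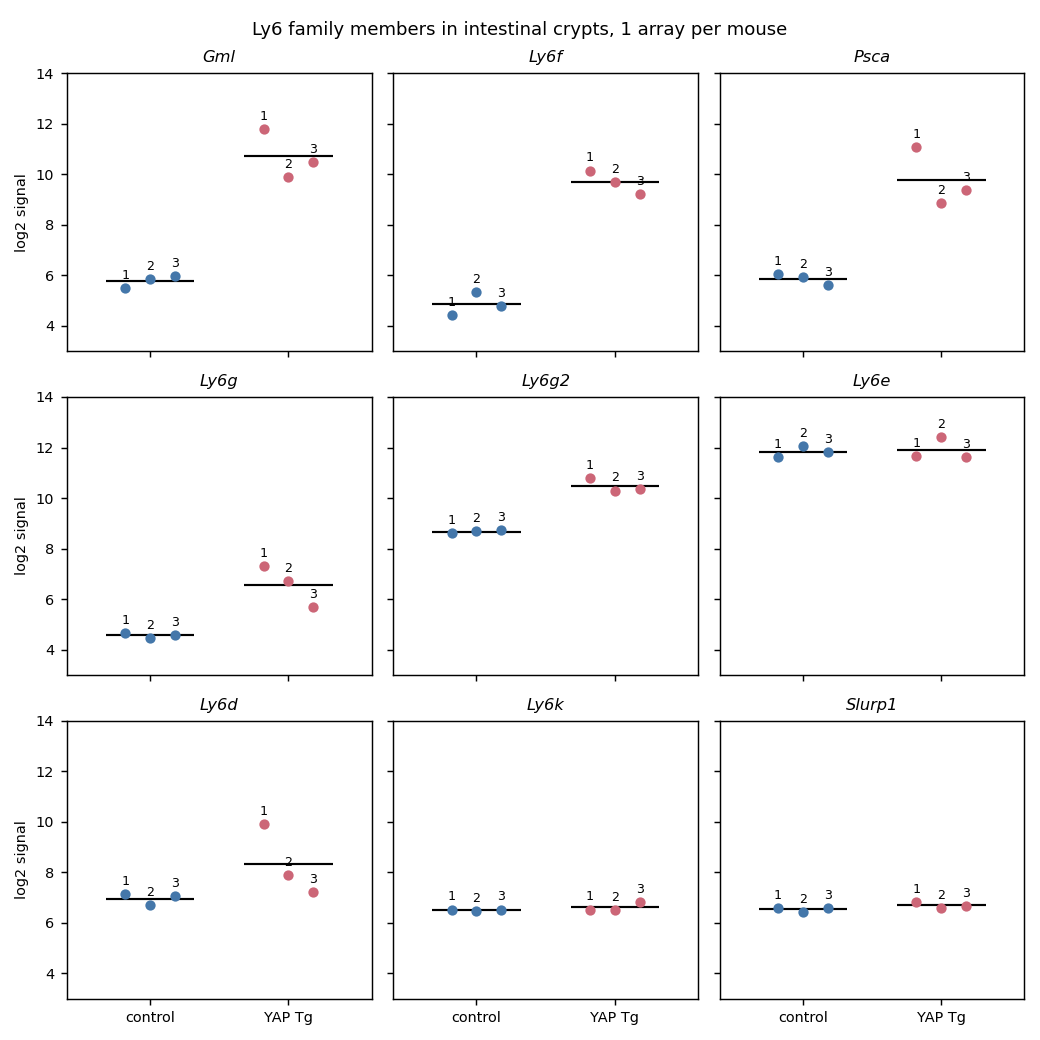
Log2 signal (vertical axis) of the 9 Ly6 family genes in 3 control (blue) and 3 YAP transgenic (red) mice, with the mouse number over each point and the group mean as a line. The transgenic points of Gml, Ly6f and Psca sit at least 2.80 above the highest control, while those of Ly6e, Ly6k and Slurp1 overlap with the controls.

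Ly6g and Ly6g2 are neighbours of Ly6f, and the Ly6g protein is the surface antigen by which mouse neutrophils are usually recognised. Ly6g read 4.65, 4.47 and 4.58 in controls and 7.31, 6.73 and 5.68 in transgenic mice 1, 2 and 3. All transgenic values exceeded all controls, by at least 1.04, but mouse 3 was much nearer to the controls than mouse 1. Means were 4.57 ± 0.09 and 6.58 ± 0.83 (SD, n = 3 each), a log2 difference of 2.01 (SE 0.39) or 4.02-fold. The control mean of Ly6g again lay below the control median of the array controls. Set against that control median, the transgenic mean gave 3.04-fold, which for the same reason is no firm lower limit.

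Ly6g2 was even across the mice of each group. It read 8.60, 8.69 and 8.74 in controls and 10.78, 10.30 and 10.37 in transgenic mice 1, 2 and 3. The groups were 1.56 apart at their closest and the transgenic SD was the smallest among the 6 members whose groups did not overlap. Means of Ly6g2 were 8.68 ± 0.07 and 10.48 ± 0.26 (SD, n = 3 each), a log2 difference of 1.81 (SE 0.14) or 3.50-fold.

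Markers of neutrophils other than Ly6g did not move past the test. Of all genes, 14.2% passed limma's test in either direction at an adjusted p below 0.05. Of 12 such markers 0 did, too few genes to tell apart from that share, and 2 had an unadjusted p below 0.05. Their median log2 difference was 0.10, and the log2 of their summed signal was 9.01 to 9.15 in controls and 9.09 to 9.26 in transgenic mice. Mmp9, a neutrophil protease, differed by 0.36 (adjusted p = 0.145) and S100a9, a calcium-binding protein abundant in neutrophils, by 0.23 (adjusted p = 0.147). Control means of 5 of the 12 markers, and transgenic means of 4, lay below the median of the array controls. Without transgenic mouse 2 the count of called neutrophil markers was 2, and with array weights it was 1.

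Ly6d, a surface protein of keratinocytes and of lymphoid progenitors that go on to make B cells, differed in mouse 1 above all. Its signals were 7.16, 6.69 and 7.05 in controls and 9.91, 7.90 and 7.23 in transgenic mice 1, 2 and 3. Mouse 3 was only 0.07 above the highest control. The means of Ly6d were 6.97 ± 0.24 and 8.35 ± 1.39 (SD, n = 3 each), a log2 difference of 1.38 (SE 0.66) that was 0.60 without transgenic mouse 1 and 1.94 without transgenic mouse 3. Markers of squamous epithelium, in which Ly6d is also known, stayed near the controls. Of 11 such genes, 0 passed limma's test in either direction, beside 14.2% of all genes, and 0 had an unadjusted p below 0.05. Their median log2 difference was 0.12, and the log2 of their summed signal was 9.08 to 9.15 in controls and 9.13 to 9.28 in transgenic mice. Control means of 1 of the 11, and transgenic means of 3, lay below the median of the array controls. Krt5, a keratin of basal squamous cells, differed by 0.22 (adjusted p = 0.238), and the stress keratin Krt6a by 0.27 (adjusted p = 0.256). Without transgenic mouse 2 the count of squamous markers called higher was 1. The 6 measured markers of B and plasma cells also gave 0 calls in either direction, with 2 at an unadjusted p below 0.05. Their log2 summed signal was 8.96 to 9.05 in controls and 9.23 to 9.79 in transgenic mice. Among them the B cell surface protein Ms4a1 differed by -0.33 (adjusted p = 0.0900) and the antigen receptor subunit Cd79b by 0.46 (adjusted p = 0.102). Jchain had the largest difference of the list, 1.00 (SE 0.45, adjusted p = 0.194). It read 6.37, 6.69 and 6.80 in controls and 8.69, 7.31 and 6.89 in transgenic mice 1, 2 and 3. All transgenic values lay above all controls for 2 of the 6 markers and below for 1. With array weights 1 of these 6 was called higher and 1 lower, and with quantile normalization 1 was called higher.

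Ly6e, a broadly expressed and interferon-inducible surface protein, had similar signals in both groups. It read 11.62, 12.05 and 11.81 in controls and 11.67, 12.42 and 11.63 in transgenic mice 1, 2 and 3. The groups overlapped, and mouse 2 was highest in each. The means of Ly6e were 11.83 ± 0.22 and 11.91 ± 0.45 (SD, n = 3 each), a log2 difference of 0.08 (SE 0.24) whose sign changed in 3 of 13 alternative analyses. Of all genes, limma called 7.50% higher and 6.70% lower. Of 16 measured interferon response genes, 1 was called higher and 0 lower, with a median log2 difference of 0.57. An unadjusted p below 0.05 was found for 5 of the 16. The gene called was Zbp1, an interferon-induced sensor of unusual nucleic acid forms, which rose by 1.40 (SE 0.29, adjusted p = 0.0277). That call was lost without control mouse 1, control mouse 3 or transgenic mouse 1, and 2 genes of the list were called without transgenic mouse 2 or 3.

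Ly6k, a GPI-anchored protein of male germ cells, and Slurp1, a secreted protein of skin that acts on nicotinic acetylcholine receptors, varied little. Ly6k read 6.53, 6.45 and 6.53 in controls and 6.53, 6.52 and 6.82 in transgenic mice, and Slurp1 read 6.59, 6.43 and 6.59 in controls and 6.82, 6.59 and 6.66 in transgenic mice. Groups overlapped for both. The log2 difference was 0.12 (SE 0.10) for Ly6k, with means of 6.51 ± 0.04 and 6.62 ± 0.17, and 0.15 (SE 0.09) for Slurp1, with means of 6.54 ± 0.09 and 6.69 ± 0.12 (SD, n = 3 each). For both genes 3 of the 6 arrays carried an identical deposited value, 6.53 for Ly6k and 6.59 for Slurp1 after rounding. Of all 19938 genes, 2397 had a value repeated on at least 3 arrays, and only 222 of these lay above the median signal.

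Counted over the 9 members, all transgenic values lay above all controls for 6, the groups overlapped for 3, and for 0 did all lie below. Across all genes the corresponding shares were 16.5% above and 17.0% below. In the fit over all genes 5 members were called higher (Gml, Ly6f, Psca, Ly6g and Ly6g2), 0 were called lower and 4 were not called, beside 7.50% of all genes called higher, 6.70% called lower and 14.2% called in either direction. Since the members were chosen with this contrast known, nothing is read from these counts. The call of Ly6g was lost without any one of the 3 control mice. The median log2 difference of the members was 1.81 and that of all genes was 0.03. In bulk RNA, more cells of a type and more RNA per cell cannot be told apart.

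Transgenic mouse 1 stood above mice 2 and 3 for most members, while mice 2 and 3 had no common order. Mouse 1 had the highest transgenic value of 7 of the 9 genes, and mouse 2 of Ly6e and mouse 3 of Ly6k. Mouse 1 was the lowest for 0 members, whereas mouse 2 was the lowest for 5 and mouse 3 for 4. The median rise of the members over their control means was 2.75 in mouse 1, 1.62 in mouse 2 and 1.12 in mouse 3. The median of the array controls was likewise 5.33, 5.15 and 5.03 in these mice, and its part in the order of the members was not tested.

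The 9 members were next set among their neighbours on the chromosome. From 5 measured genes before the first member, Psca, to 5 after the last, Ly6f, the segment held 29 measured genes. Of these, 7 were other listed family genes and 13 were in neither list, among them Ly6g6g and Ly6a2, which are Ly6 genes by name. Of all genes, limma called 7.50% higher and 6.70% lower. Of the 20 in the segment that were no members, 2 were called higher, 0 lower and 18 not, which is near those shares. One was Them6, a gene of the thioesterase superfamily between Psca and Slurp1. It read 7.76, 7.58 and 7.64 in controls and 8.66, 9.78 and 8.95 in transgenic mice. The groups did not overlap, and the log2 difference was 1.47 (SE 0.28, adjusted p = 0.0200). The other was Lynx1, between Slurp2 and Ly6d, which is described with the family below. Neither was called without any one of the 3 control mice, and the count was 1 without transgenic mouse 3 or with the filter on signal.

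Genes that rose and genes near the controls were interspersed along the segment. Gml stood between Ly6k (0.12) and Cyp11b1, a steroid hydroxylase. Ly6f, the last member, followed Ly6g2, and the family genes Ly6h and Gpihbp1 lay beyond it. The 13 neighbours outside the family lists had a median log2 difference of 0.07 and the 7 other family genes one of 0.26, against 1.81 for the members, a contrast that the choice of members sets in part.

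**Figure D2:**
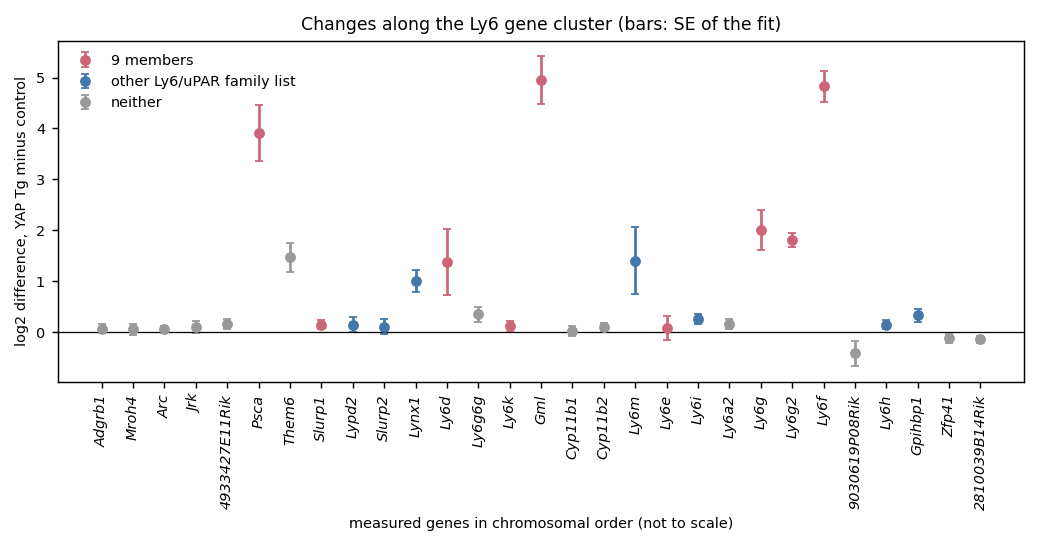
Log2 difference, transgenic minus control (vertical axis, bars show the SE of the fit), of 29 measured genes in chromosomal order, not to scale. The 9 members are in red, other listed family genes in blue and the rest in grey, Ly6g6g and Ly6a2 among them. Psca, Gml and Ly6f stand at 3.91, 4.95 and 4.83 with genes near 0 between them.

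Of 40 other Ly6/uPAR genes listed, 33 were measured here. By limma's test 3 were higher in transgenic crypts, 2 were lower and 28 were not called, and 10 had an unadjusted p below 0.05. Of all genes, 7.50% were called higher and 6.70% lower. The median log2 difference of the 33 was 0.10, close to the 0.03 of all genes. Their groups did not overlap for 4 genes above and 3 below, beside 16.5% and 17.0% of all genes. Ly6a, Ly6c1, Ly6c2, Ly6l, Gml2, Ly6g5b and Pate3 were not analysed here as single genes.

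Plaur, the receptor that holds the protease urokinase at the cell surface, rose most among them. It read 5.86, 6.07 and 6.46 in controls and 9.27, 9.29 and 8.15 in transgenic mice 1, 2 and 3. The groups did not overlap and mouse 3 was the lowest transgenic mouse. The log2 difference of Plaur was 2.77 (SE 0.34, adjusted p = 0.00469), or 6.84-fold, and the call held in all 13 alternatives (adjusted p 0.00205 to 0.0341).

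The complement inhibitors moved the other way. Cd59a, a GPI-anchored protein that blocks the membrane attack complex, read 7.38, 6.42 and 7.19 in controls and 4.71, 4.64 and 4.82 in transgenic mice. It fell by 2.27 on the log2 scale (SE 0.25, adjusted p = 0.00317), and the call held in the 12 alternatives that included it, with an adjusted p of at most 0.0275. Its paralogue Cd59b read 6.19, 5.94 and 5.67 in controls and 4.64, 4.83 and 5.14 in transgenic mice. It fell by 1.06 (SE 0.18, adjusted p = 0.0134), a call that did not hold when control mouse 1 or 2 was left out (adjusted p at most 0.0673). All transgenic values of both genes lay below all their controls, and both transgenic means lay below 5.17, the transgenic median of the array controls, so each fall may be larger than measured.

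Lynx1, a membrane-tethered modulator of nicotinic acetylcholine receptors, read 5.85, 5.80 and 5.64 in controls and 7.27, 6.59 and 6.47 in transgenic mice. As for most members, transgenic mouse 1 was the highest and the groups did not overlap. It rose by 1.01 (SE 0.21, adjusted p = 0.0286), a call lost without any one control mouse (adjusted p up to 0.121). Pate4, a secreted protein of the male reproductive tract, rose by 0.44 (SE 0.10, adjusted p = 0.0304). Its values were 4.13, 4.21 and 4.13 against 4.76, 4.57 and 4.45, all below the medians of the array controls, and its call was lost without any one control mouse or without transgenic mouse 1, and also with quantile normalization (adjusted p up to 0.126).

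Other family genes with high signal stayed near the controls or varied within the groups. Lypd8, which keeps flagellated bacteria away from the colonic epithelium, read 13.86, 13.86 and 13.79 in controls and 13.82, 13.75 and 13.73 in transgenic mice, a difference of -0.07 (SE 0.07, adjusted p = 0.521). Ly6m, next to Ly6e in the cluster, read 8.91, 10.84 and 10.13 in controls and 12.35, 10.30 and 11.46 in transgenic mice. The groups of Ly6m overlapped, since transgenic mouse 2 lay below control mouse 2, and its difference of 1.41 (SE 0.66, adjusted p = 0.209) did not pass the test. Cd177, a neutrophil surface protein, differed by -0.39 (adjusted p = 0.0609), with all transgenic values at least 0.13 below all controls. Ly6g6d, Ly6g6e and Ly6g6f, family genes outside the chromosome 15 cluster, differed by 0.10, 0.18 and 0.11, and all 3 overlapped between groups.

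**Figure D3:**
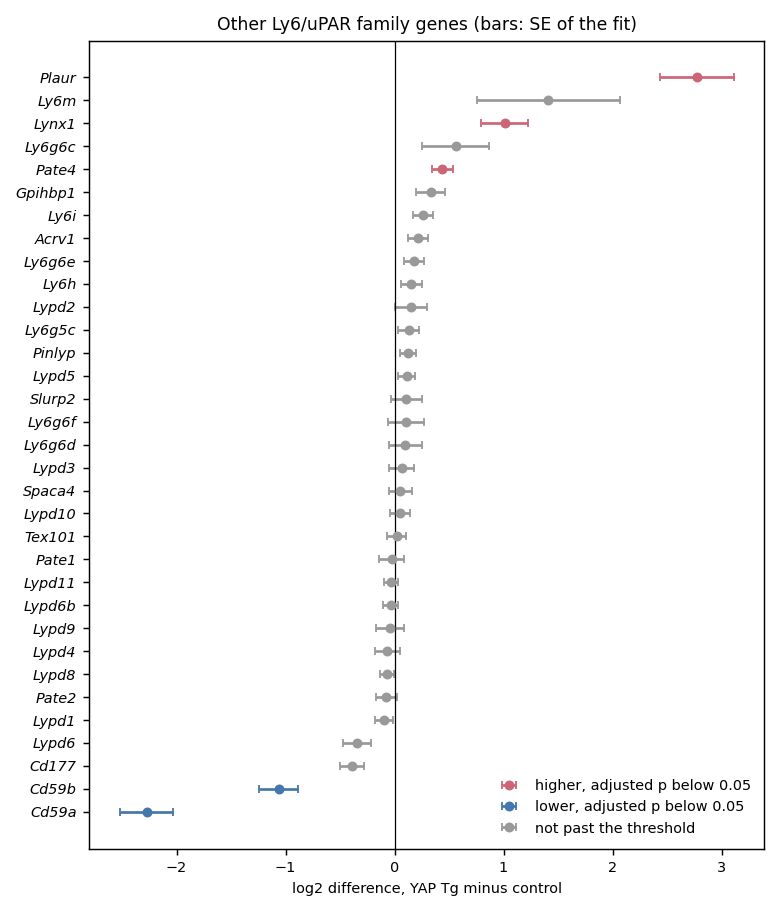
Log2 difference, transgenic minus control (horizontal axis, bars show the SE of the fit), of 33 other Ly6/uPAR genes, with genes past limma's adjusted p of 0.05 in red (higher) or blue (lower). Plaur at 2.77 and Cd59a at -2.27 mark the ends, and 28 genes are grey.

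A pair of probe sets annotated to both Ly6c1 and Ly6c2, surface antigens of monocytes and lymphocytes, were higher in the transgenic crypts. The first read 6.72, 7.29 and 6.43 in controls and 9.95, 10.78 and 8.34 in transgenic mice, a difference of 2.88. The second read 6.17, 6.45 and 6.19 in controls and 8.67, 9.53 and 7.45 in transgenic mice, a difference of 2.28. On both, transgenic mouse 2 was highest and mouse 3 lowest, unlike Gml, Ly6f and Psca, where mouse 1 was highest. No single gene can be named from these probe sets and they were not part of the fit.

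Genes whose products work with Ly6/uPAR proteins were counted from lists. The shares of all genes to set beside these and the later lists were 7.50% called higher and 6.70% called lower. For groups that did not overlap they were 16.5% above and 17.0% below. Of 30 genes for the assembly, remodelling and cleavage of GPI anchors, 3 were called higher and 5 lower, with a median log2 difference of -0.32. For 16 of the 30 all transgenic values lay below all controls, and for 5 all lay above. Pgap1, which removes an acyl chain from the new anchor in the endoplasmic reticulum, read 9.97, 9.97 and 9.47 in controls and 11.46, 11.97 and 12.08 in transgenic mice. It rose by 2.04 (SE 0.21, adjusted p = 0.00276). Pigg, which adds ethanolamine phosphate to the anchor, rose by 0.48 (adjusted p = 0.0224), and Gpld1, a phospholipase that cuts GPI anchors, fell by 1.33 (adjusted p = 0.0208). The count of lower GPI genes rested on single mice. It was 18 without transgenic mouse 2 and 16 with array weights, 2 without transgenic mouse 1, and 0 without transgenic mouse 3 or any one control mouse. The count of higher ones was 1 without transgenic mouse 3 or without any one control mouse.

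Of 16 nicotinic acetylcholine receptor subunits, the targets of Slurp1 and Lynx1, 1 was called higher and 0 lower, with a median log2 difference of 0.09. This was Chrnb1, the beta subunit of the muscle receptor, which read 6.21, 6.14 and 6.09 in controls and 8.52, 8.07 and 8.22 in transgenic mice. It rose by 2.12 (SE 0.13, adjusted p = 0.000685), with no overlap between groups. The count was 4 without transgenic mouse 2 or with array weights. Of 7 measured genes of the urokinase system, in which Plaur acts, 1 was called higher and 1 lower, with a median of 0.12. Plat, tissue plasminogen activator, rose by 0.82 (adjusted p = 0.0199), and Plgrkt, a plasminogen receptor, fell by 1.26 (adjusted p = 0.0245). Both calls were lost without any one control mouse, and Plgrkt's also without transgenic mouse 1.

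Markers of the labelled tissue were present in all mice, and those of T cells differed between groups. Epcam read 11.63 to 11.73 in controls and 11.68 to 11.96 in transgenic mice, and Vil1, the villin gene, had means of 12.41 ± 0.07 and 12.51 ± 0.06 (SD, n = 3 each). Both were named as defining markers of gut epithelium after their values were seen. Of 10 epithelial markers 4 were called higher and 1 lower. Krt18, a keratin of simple epithelia, rose by 1.53 (adjusted p = 0.000596) and the adhesion protein Cdh17 by 0.41 (adjusted p = 0.0139), and the intestinal transcription factor Cdx1 fell by 0.97 (adjusted p = 0.00848). The count of higher markers was 1 to 2 without any one control mouse and 2 without transgenic mouse 3. The call of Cdx1 was lost without control mouse 3. The log2 summed signal of these markers was 15.57 to 15.68 in controls and 15.91 to 15.95 in transgenic mice.

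T cell and intraepithelial lymphocyte markers were higher in the transgenic crypts. All 9 measured were higher in every transgenic mouse than in every control, and 8 were called higher and 0 lower by limma, with a median log2 difference of 1.37. The antigen receptor subunit Cd3d rose by 1.59 (adjusted p = 0.00106), the co-receptor Cd8a by 1.46 (adjusted p = 0.00104) and Cd7 by 1.35 (adjusted p = 0.00106). Their log2 summed signal was 13.18 to 13.45 in controls and 14.54 to 14.86 in transgenic mice, and 0 of the 9 had a mean below the median of the array controls. Ly6 proteins are known on lymphocytes, and the part of these cells in the members' values was not tested.

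Of 10 monocyte and macrophage markers 2 were called higher and 1 lower. The growth factor receptor Csf1r rose by 0.85 (adjusted p = 0.00377), the lysosomal protein Cd68 rose by 0.61 (adjusted p = 0.0385), and the integrin Itgam fell by 0.43 (adjusted p = 0.0499). Mpeg1 had the largest difference of the list, 1.28 (SE 0.33), and just missed the threshold (adjusted p = 0.0503). All transgenic values lay above all controls for 3 of the 10, Mpeg1 among them, and below for 1. An unadjusted p below 0.05 was found for 4. The higher count was 1 without any one control mouse, without transgenic mouse 1 or with quantile normalization. The lower call did not hold when control mouse 1 or 2 or transgenic mouse 1 or 3 was left out, among others. Their log2 summed signal was 10.31 to 10.65 in controls and 10.24 to 10.53 in transgenic mice. Endothelial markers (7) and those of fibroblasts and smooth muscle (9) gave 0 calls in either direction, with 1 and 0 at an unadjusted p below 0.05 and medians of 0.17 and 0.13. Pecam1 and Tie1, both endothelial, differed by 0.24 (adjusted p = 0.0976) and 0.42 (adjusted p = 0.181), and Col1a1 and Acta2, of fibroblasts and smooth muscle, by 0.20 (adjusted p = 0.281) and 0.12 (adjusted p = 0.309).

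**Figure D4:**
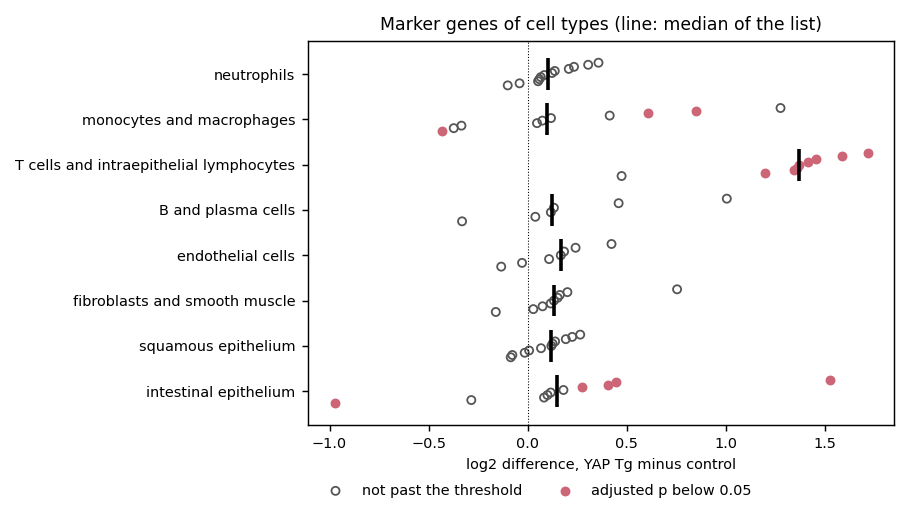
Log2 difference, transgenic minus control (horizontal axis), of marker genes of 8 cell types, with 1 point per gene, filled where limma's adjusted p was below 0.05, and a line at each list's median. T cell markers lie around a median of 1.37, and 0 of the neutrophil and squamous markers are filled.

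Genes whose pattern over the 6 arrays was most like that of the 3 leading members were found by the root-mean-square distance between log2 values taken relative to each gene's control mean. For Gml these were the calcium-binding phosphatase Ppef1 (distance 0.417), Serpinb9b (0.456), the lysyl oxidase relative Loxl4 (0.481), Ly6f (0.486) and the endothelin gene Edn1 (0.584). For Ly6f they were Ccn1 (0.427), a secreted protein widely used as a readout of YAP, then Gml (0.486), Ppef1 (0.531), Edn1 (0.587) and Loxl4 (0.617). Ccn1 read 6.22, 6.17 and 6.16 in controls and 10.80, 10.61 and 10.60 in transgenic mice, a difference of 4.49 (SE 0.08). For Psca the nearest were Serpinb9 (0.268), an inhibitor of granzyme B, the phosphatase Dusp14 (0.407), the phospholipid flippase Atp11a (0.458), Loxl4 (0.470) and the glycosyltransferase Gcnt1 (0.471). Like Psca, Serpinb9 was highest in transgenic mouse 1, at 11.37, against 9.81 and 9.66 in mice 2 and 3. Genes with large increases are favoured by this distance when the member's own increase is large.

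Yap1 itself read 9.43, 9.48 and 9.30 in controls and 8.98, 9.27 and 9.25 in transgenic mice, a difference of -0.24 (SE 0.10, adjusted p = 0.184). Whether its probes match the transgene is unknown here, so these values do not check the labels.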

How the data were processed

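Gene expression in crypts of 3 control and 3 YAP transgenic mice was measured on Affymetrix arrays, 1 per mouse, and groups and mouse numbers were taken from the titles. The labels do not say more of how the mice were kept. Each p-value sets a group difference against the spread between these mice, moderated by limma over all genes. The authors deposited a log2 signal for each of 35556 probe sets on every array, and the submitters' processing notes name Affymetrix Expression Console 1.1. For background correction, normalization, probe summary and array build, nothing is given in the sources used here. Array medians of 6.19 to 6.32 show a common level across arrays, which hides any change shared by all genes.

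Left out as likely array controls were 6617 probe sets, those with numbers below the first annotated one. Of the rest, 21789 had 1 gene symbol and 1621 had several. Each of 19938 genes was read from the 1-symbol probe set with the highest mean over 6 arrays, and each member had only 1 such probe set. Differences (transgenic minus control, log2) were fitted with limma 3.58.1 (R 4.3.3), two-sided, with Benjamini-Hochberg adjustment across all 19938 genes, and called at an adjusted p below 0.05. Gene order, promoter windows and sequences came from RefSeq (GRCm38.p6), used by symbol. Protein sequences were not analysed here, so a planned comparison of the members' proteins was not made.

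The members, lists and tests were chosen with earlier results of these data known. Named genes are the members, family genes and neighbours past the test, and the 6 other family genes with the highest signal. Of each other list up to 3 called genes are named, or else 2 with the smallest p. The 5 genes nearest to Gml, Ly6f and Psca are also named. Jchain and Mpeg1 were added as the largest differences of their lists, after the values were seen. Alternatives left out each mouse or changed the block, normalization, centring, filter, prior, weights, probe set choice and threshold.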

Additional observations from a re-analysis of the deposited data

Results flagged for a closer look

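A signal above the control level appeared on 3 probe sets of the Ly6 family that no comparison used, because each is annotated to more than 1 gene. The probe set of Gml and Gml2 was 5.06 log2 units higher in transgenic than in control crypts. The probe sets of Ly6c1 and Ly6c2 were higher by 2.88 and 2.28. On each of the 3 the lowest transgenic value exceeded the highest control value, and these differences were not tested.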

How the results depend on the processing

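Each member's difference moved by less than 1 SD of its replicates in 114 of 114 alternatives, but most of these could not have passed that limit. Leaving out 1 of 3 mice cannot exceed it, and the block, prior, filter and probe set choice left each difference unchanged. Only quantile normalization, centring and array weights could have done so. The difference of Ly6e changed sign in 3 alternatives and lay between -0.17 and 0.22. The members' median of 1.81 became 2.86 among the 6 members kept by the filter on signal above the median. Calls of the 6 other family genes and neighbours named as called stayed past the threshold in 57 of 74 alternatives, were lost in 17 and reversed in 0. Over all genes 1495 were called higher and 1336 lower. Leaving out 1 mouse gave 669 to 2802 higher and 369 to 3889 lower, array weights 2459 and 3481, an adjusted p below 0.01 661 and 386, and a log2 difference of at least 1 519 and 468. Of the other family genes 3 were called higher and 2 lower. Leaving out 1 mouse gave 1 to 4 and 1 to 2, the filter on signal 1 and 0, and an adjusted p below 0.01 1 and 1. Mice of the same number were not paired by the labels, and their deviations from the group means correlated at -0.13, 0.01 and 0.10. With the number as a replicate block 975 genes were called higher and 727 lower, and of the other family genes 1 was called lower, with the calls of Cd59b, Pate4 and the neighbour Them6 lost. The cause of these changes was not tested, apart from the smaller number of mice or genes that an alternative leaves. Probes near the array background, among them Ly6f and Ly6g in controls and Cd59a and Cd59b in transgenic mice, limit how large a fold can be read.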
